A study of Homo sapiens with 12 samples.

Results

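The integrin subunit genes of epithelial cells were followed in HCC1806, a human triple-negative breast cancer cell line, by mRNA-seq. The genes are ITGA2, ITGA3, ITGA5, ITGA6, ITGAV, ITGB1, ITGB4, ITGB5, ITGB6 and ITGB8, chosen by symbol, and all 10 had a row among the 17013 genes of the table. ITGA2 was singled out because its level differed between siMLK4 and siNT cells under doxorubicin, so its values in the doxorubicin libraries are given as a description with no test, and counts of calls cover the other 9 subunits, its partners. Cells were transfected with a pool of siRNAs against MLK4 (siMLK4; the gene is MAP3K21, a mixed-lineage kinase) or with a non-targeting control siRNA (siNT), and each was then given vehicle or 1 μM doxorubicin, an anthracycline that poisons topoisomerase and breaks DNA, for 24 h. That makes 4 groups of 3 libraries, all from the same unsorted cell line. The legend of a supplementary figure of the study names DMSO as the vehicle, and the study's text sets vehicle beside 24 h of doxorubicin. The titles, however, give the vehicle libraries the time 0 and the methods call these cells untreated, so how long they were kept in vehicle is not settled by these sources. Nothing in the labels says that the 3 libraries of a group came from separate cultures on separate days, and p-values measure the spread between them. The table covers 16759025 to 19302248 reads per library, and each of the 10 subunits had over 100 normalized reads in every library.

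Integrins are heterodimers of an α and a β chain that span the plasma membrane and hold the cell to the extracellular matrix. ITGB1 pairs with ITGA2 as a collagen receptor, with ITGA3 and ITGA6 as laminin receptors and with ITGA5 as the fibronectin receptor, while ITGB4 pairs only with ITGA6, in the hemidesmosomes that anchor basal epithelium to its basement membrane. ITGAV pairs with ITGB1, ITGB5, ITGB6 or ITGB8 to bind ligands that carry the RGD motif, among them vitronectin and latent TGF-β.

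The epithelial label fits the markers. All 10 epithelial markers looked for were in the table, and the most abundant, KRT8, had 15158 to 33086 normalized reads (reads divided by the size factor of the library) over the 12 libraries. Markers of other cell types were read as well, although all libraries came from the same cell line. Of 6 leukocyte markers 3 were in the table, with CD14 the highest at 10.57 to 43.36 normalized reads and with no row for CD3E or ITGAL. Of 4 endothelial markers, VWF alone was present, at 13.5 to 67.14, and of 6 fibroblast markers COL1A1 was the highest at 254.5 to 577.3, with no row for COL1A2, COL3A1 or DCN. The summed epithelial markers themselves were lower with doxorubicin: 110125 to 126463 normalized reads in siNT vehicle against 79193 to 90726 in siNT doxorubicin libraries, and 99858 to 108772 against 48578 to 63641 in siMLK4 cells. The summed fibroblast markers were higher in siMLK4 cells without overlap, at 390.4 to 474.4 in siNT and 666.6 to 833.5 in siMLK4 vehicle libraries, and at 281.9 to 306.4 and 361.9 to 502.6 with doxorubicin. The most abundant of them, COL1A1, was called higher with vehicle (log2 fold change 0.78, limma adjusted p = 0.00041). The summed leukocyte markers were at 23.48 to 37.37 in siNT vehicle, 53.74 to 67.37 in siNT doxorubicin, 31.06 to 47.57 in siMLK4 vehicle and 61.05 to 78.38 in siMLK4 doxorubicin libraries. VWF was at 13.5 to 35.92 in siNT vehicle and 31.88 to 58.38 in siMLK4 vehicle libraries, which overlapped, and at 23.07 to 36.5 and 36.69 to 67.14 with doxorubicin, which did not. Of 3 platelet and megakaryocyte markers ITGA2B alone was present, at 43.78 to 63.33 in siNT and 69.75 to 88.17 in siMLK4 vehicle libraries, and at 63.87 to 97.82 and 85.05 to 128.8 with doxorubicin. The part of these markers in the integrin results, between treatments and between siRNAs, was not tested. In such bulk libraries fewer cells of a kind and less RNA per cell cannot be told apart.

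The silenced gene itself was read first. With vehicle, MAP3K21 was at 553.1, 669.6 and 673.6 normalized reads in siNT and at 103.2, 94.66 and 88.65 in siMLK4 libraries. With doxorubicin it had 757.6, 856.1 and 771.6 in siNT and 112.8, 138.4 and 94.35 in siMLK4 libraries. The groups did not overlap, and siMLK4 cells kept 15.1% of the siNT mean with vehicle (log2 fold change −2.24, SE 0.12, limma adjusted p = 9.7e-08) and 14.5% with doxorubicin (−2.37, SE 0.12, adjusted p = 1.1e-07).

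The sequences of the 4 siRNAs are shown because every siMLK4 library received all of them, so that any gene differing between siMLK4 and siNT cells differs with the whole pool. The antisense strands over the 19 paired bases, 5′ to 3′ with the seed (bases 2 to 8) in capitals, read:
siMLK4_1: uCUCUCUGagcaucuuucc
siMLK4_2: uUUACCUUgggcuucuccu
siMLK4_3: aUUCCCUCucguuucuucu
siMLK4_4: uUUCUUUGcaaucuguucu
The 19 bases of each sense strand were found in 2 of the 3 annotated MAP3K21 transcripts and in none of the canonical transcripts of the 10 integrins. The 7-base complements of the seeds were searched on the transcribed strand of the 3′ untranslated regions of 13581 genes. CAGAGAG (siMLK4_1) was in 17.6% of them, AAGGTAA (siMLK4_2) in 11.4%, GAGGGAA (siMLK4_3) in 17.3% and CAAAGAA (siMLK4_4) in 20.4%. Among the 1406 genes with a region of a length like that of ITGA2 (4180 bases) the shares were 33.1%, 23.5%, 33.9% and 41.1%. These latter shares are matched to ITGA2 only, since the regions of the other integrins ran from 263 (ITGB4) to 5757 bases (ITGB8). ITGA2 held AAGGTAA once and ITGAV held it 3 times, which are shown here because ITGA2 has this match alone; the pair was chosen after the values were seen. In capitals is the seed match, and each 19-base window is aligned with the sense strand of siMLK4_2, on the plus strand of GRCh38:
ITGA2, chr5:53093609-53093627: acttttaagcaAAGGTAAg
ITGAV, chr2:186678461-186678479: tctgtttaagcAAGGTAAt
ITGAV, chr2:186679813-186679831: tctgaatctgaAAGGTAAa
ITGAV, chr2:186680666-186680684: tgaaatatcctAAGGTAAc
The ITGA2 window shares 10 of 19 bases with the siRNA and the ITGAV windows 8, 9 and 12. CAGAGAG was also found 3 times in ITGA3, 2 times in ITGB5 and once each in ITGA6, ITGB1 and ITGB8, CAAAGAA once each in ITGA5, ITGA6 and ITGB8, GAGGGAA in no integrin studied, and none of the 4 in ITGB4 or ITGB6. A match is a run of letters and not a shown site of action, and whether any siRNA acts on an integrin transcript was not tested.

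**Figure D1:**
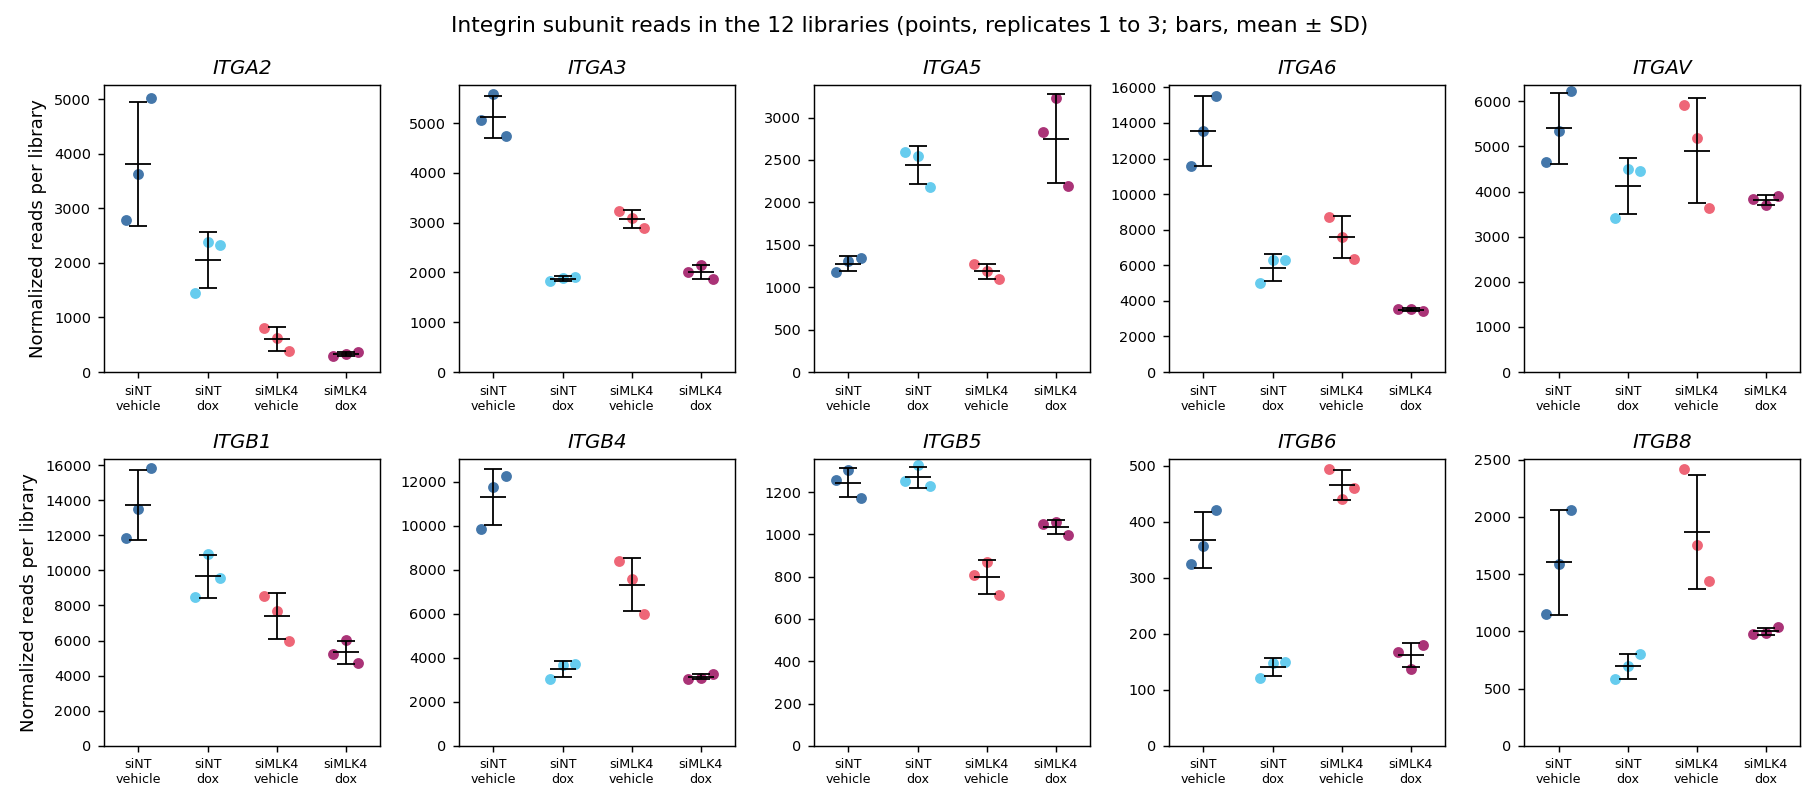
Normalized reads (vertical axis, linear from 0) of the 10 integrin subunits in each of the 12 libraries, by siRNA and treatment; points are replicates 1 to 3 from left to right and bars the mean ± SD. ITGA2 is at 2782 to 5024 in siNT vehicle and at 384.9 to 806.5 in siMLK4 vehicle libraries, whereas ITGAV overlaps between the same groups.

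ITGA2, the collagen-binding α chain, had the largest fold change of the 10 subunits between the siRNAs with vehicle. It had 2782, 3625 and 5024 normalized reads in siNT vehicle libraries and 806.5, 622.8 and 384.9 in siMLK4 vehicle libraries. Every siMLK4 library lay below every siNT library, and the mean was 15.9% of that in siNT cells (log2 fold change −2.57, SE 0.25, 95% interval −3.10 to −2.03, limma adjusted p = 8.5e-06). With doxorubicin it had 1456, 2377 and 2328 in siNT and 295.1, 326.9 and 365.6 in siMLK4 libraries, that is 16% of the siNT mean. The doxorubicin libraries lay below the vehicle libraries of the same siRNA, at 53.9% of the vehicle mean in siNT and 54.4% in siMLK4 cells. The 4 groups thus stood in the order siNT vehicle, siNT doxorubicin, siMLK4 vehicle and siMLK4 doxorubicin, with no overlap between neighbours. The gene lies on chromosome 5 at 52989340 to 53094779 (GRCh38, plus strand). ITGAV, with 3 copies of the seed match that ITGA2 holds once, had 4649, 5335 and 6222 in siNT vehicle and 5916, 5183 and 3625 in siMLK4 vehicle libraries. These overlapped, with a log2 fold change of −0.16 (95% interval −0.52 to 0.20, limma adjusted p = 0.54). CAGAGAG was in 5 of the subunits, of which 4 were lower in every siMLK4 vehicle library: ITGB1 (log2 fold change −0.89, limma adjusted p = 0.00097), ITGA6 (−0.84, 0.00074), ITGA3 (−0.73, 0.00014) and ITGB5 (−0.61, 0.00052). The fifth, ITGB8, overlapped between the siRNAs (0.22, adjusted p = 0.45). CAAAGAA was in ITGA6, ITGB8 and ITGA5, the last of which overlapped too (−0.11, adjusted p = 0.61). ITGB4, without any of the 4 matches, was also lower (−0.63, adjusted p = 0.0037). The part of the seed matches in the integrin differences was not tested. Among the 1555 genes with AAGGTAA, 5.72% were lower and 1.93% higher in siMLK4 than in siNT vehicle libraries by the rule given next, with a median log2 fold change of −0.09, against 3.46%, 2.94% and −0.00 among 12026 genes without it. The share lower was higher with than without the match for the other seeds too, and GAGGGAA of siMLK4_3, which no integrin studied holds, had a wider gap, with 6.94% of its 2348 genes lower and 2.26% higher against 3.04% and 2.94% of the 11233 without it. CAGAGAG had 4.7% lower against 3.51%, and CAAAGAA 4.4% against 3.54%. Genes with and without a match were not matched for the length of the untranslated region. AAGGTAA was in 11.4% of all regions and in 23.5% of those about as long as that of ITGA2. The part of length in these gaps was not tested.

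Calls required that the adjusted p lie under 0.01 and that the log2 fold change on the deposited scale exceed 0.75 in size, and a second rule asked only for an adjusted p under 0.05. The log2 scale is a variance-stabilizing one, which understates changes of genes with few reads. The tests of 5 comparisons were each adjusted over 17013 genes. Over all genes, 53.4% of the calls with doxorubicin in siNT and 54.4% in siMLK4 cells, 44.4% between the siRNAs with vehicle, 47.6% with doxorubicin and 36.2% for the difference of the responses were in the higher direction. On log2(normalized reads + 1), with the size factors kept, the shares were 57.1%, 55.6%, 55.5%, 49.7% and 41.2%. On that log2 scale, library totals in place of the size factors gave 73.4%, 68.7%, 73.8% and 62.2% for the first 4, with 5, 3, 1 and 1 partners lower and 1, 1, 0 and 0 higher, and TMM factors gave 50% for the last.

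Knock-down of MLK4 without drug was accompanied by lower levels of 2 of the 9 partners, ITGB1 and ITGA6, and by a higher level of none (background: 3.14% of all genes lower and 2.51% higher), with limma as with limma-voom on the recovered reads, and with 1 higher at an unadjusted p under 0.05. At the second rule 5 partners were lower and none higher (13% and 12.7% of all genes), and the partners had a median log2 fold change of −0.61, against 0.01 over the whole table. ITGB1, the common β chain and partner of ITGA2, had 11828, 13487 and 15805 normalized reads in siNT and 8532, 7705 and 5952 in siMLK4 vehicle libraries. The groups did not overlap, and siMLK4 cells held 54% of the siNT mean (log2 fold change −0.89, SE 0.16, limma adjusted p = 0.00097). ITGA6, the laminin-binding α chain of hemidesmosomes, had 11558, 13546 and 15531 in siNT and 8741, 7583 and 6374 in siMLK4 libraries, or 55.9% (−0.84, SE 0.14, limma adjusted p = 0.00074). ITGA3, the other laminin-binding chain, had 5070, 5578 and 4730 against 3239, 3100 and 2887. It did not overlap either but its log2 fold change of −0.73 (SE 0.10, limma adjusted p = 0.00014) stayed just inside the fold threshold, which it passed without siNT vehicle replicate 3 (−0.78) or without siMLK4 vehicle replicate 1 (−0.76). ITGB4 (64.8% of siNT, log2 fold change −0.63, adjusted p = 0.0037) and ITGB5 (64.1%, −0.61, adjusted p = 0.00052) met only the second rule. ITGA5, ITGAV and ITGB8 overlapped between the siRNAs, with 95% intervals of the log2 fold change of −0.39 to 0.18, −0.52 to 0.20 and −0.20 to 0.65. ITGB6 was at 324.1, 356.1 and 421.0 in siNT and at 493.9, 441.4 and 459.5 in siMLK4 libraries, higher in each siMLK4 library but short of the threshold (0.31, adjusted p = 0.079).

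The vehicle libraries did not vary independently from gene to gene. In siNT vehicle, replicate 1 was the lowest for 8 of the 10 subunits and replicate 3 the highest for 8, and in siMLK4 vehicle, replicate 1 was the highest and replicate 3 the lowest for 9. Without siMLK4 vehicle replicate 3 neither call remained, with log2 fold changes of −0.74 for ITGB1 (adjusted p = 0.0031) and −0.72 for ITGA6 (adjusted p = 0.0025). The ITGA6 call was also lost without siNT vehicle replicate 3 (−0.73), and in a fit of these 2 groups alone both had an adjusted p of 0.017. ITGA2 kept its call with any library left out (−2.79 to −2.30).

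With doxorubicin in both arms, ITGB1 was the single partner called between the siRNAs, and it was lower (background: 2.93% of all genes lower and 2.66% higher). ITGB1 had 8467, 10930 and 9588 normalized reads in siNT and 5208, 6034 and 4712 in siMLK4 doxorubicin libraries, or 55% (log2 fold change −0.85, SE 0.16, limma adjusted p = 0.0013). ITGA6 had 4986, 6309 and 6293 in siNT and 3519, 3565 and 3438 in siMLK4 libraries without overlap, and met only the second rule (−0.72, SE 0.14, adjusted p = 0.0021). Without siNT doxorubicin replicate 1, the lowest of its group, ITGA6 met the first rule as well (−0.84). These 2 were the partners lower at the second rule (12.1% of all genes) and none was higher (12.7%, with 1 at an unadjusted p under 0.05), with a median log2 fold change of −0.10 against 0.02 over all genes. ITGA3 at 1828, 1888 and 1912 in siNT and 2014, 2151 and 1873 in siMLK4 libraries overlapped, as did ITGA5, ITGAV, ITGB4 and ITGB6. ITGB5 lay lower in each siMLK4 library, at 81.5% of siNT, and missed both rules (−0.28, 95% interval −0.49 to −0.07, limma adjusted p = 0.051). ITGB8 lay higher in each siMLK4 library (980.2, 982.3 and 1035 against 581.4, 701.4 and 798.9) and missed both rules (0.50, 95% interval 0.08 to 0.93, limma adjusted p = 0.078).

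**Figure D2:**
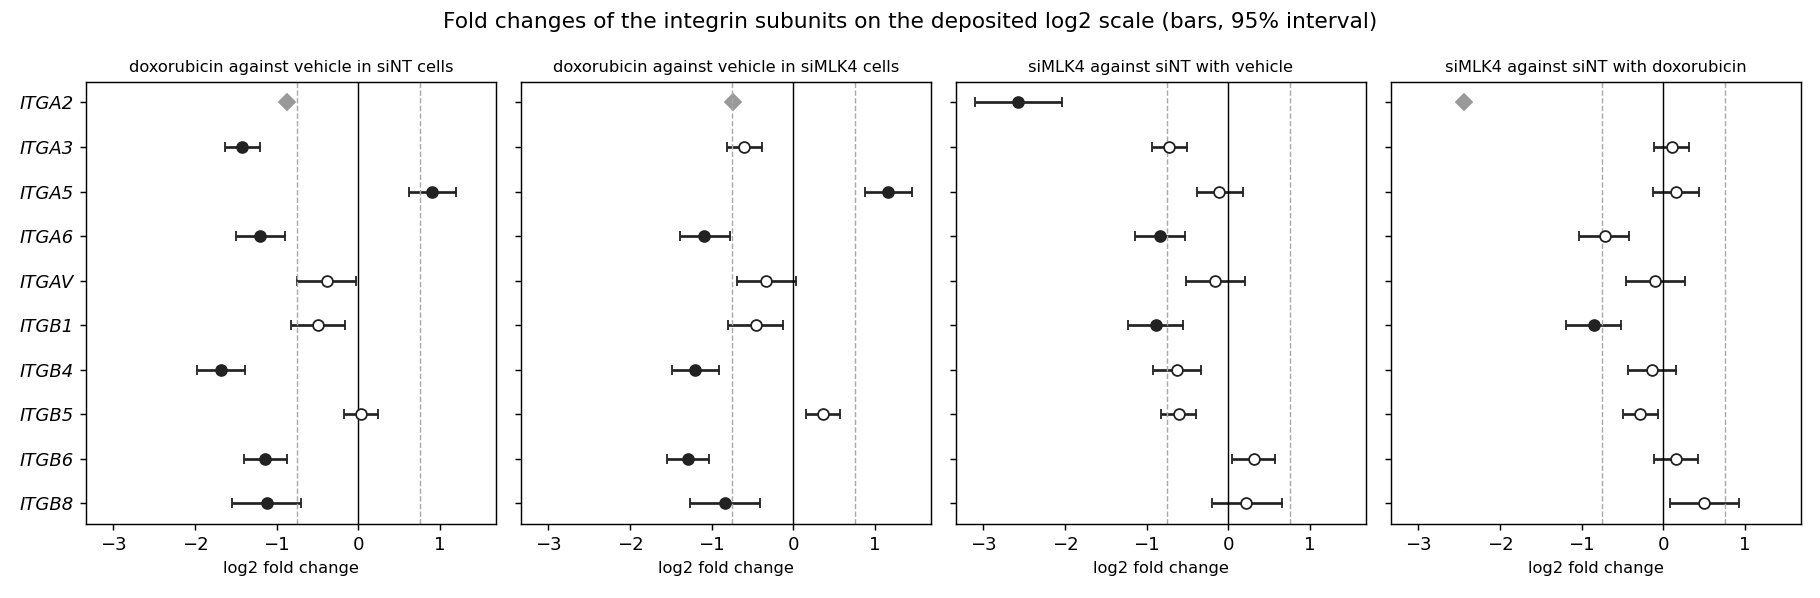
Log2 fold change (horizontal axis) of the 10 subunits in 4 comparisons; bars are 95% intervals from limma, filled circles are called genes, open circles are not called, grey diamonds are ITGA2 in the comparisons that were not tested for it, and dashed lines mark an absolute log2 fold change of 0.75. ITGA5 is the subunit called higher, with doxorubicin under both siRNAs, and ITGA2 at −2.57 lies farthest from 0.

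With doxorubicin the laminin-binding α chains, the hemidesmosomal β chain and a pair of ITGAV partners were lower in siNT cells. The fibronectin-binding α chain was higher there. In siNT cells 5 of the 9 partners were called lower (ITGA3, ITGA6, ITGB4, ITGB6 and ITGB8) and 1 higher (ITGA5), against a background of 10.6% of genes lower and 12.1% higher. At the second rule 6 were lower and 1 higher (27.7% and 29.6% of all genes). The partners had a median log2 fold change of −1.12, against 0.00 over the whole table. In siMLK4 cells 4 were called lower (ITGA6, ITGB4, ITGB6 and ITGB8) and ITGA5 higher, against 10.6% and 12.6% of all genes, and 6 and 2 at the second rule (27.7% and 30.2%). Their median was −0.60, against 0.02. Both doxorubicin comparisons stand on their own vehicle libraries.

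ITGB4, the β chain of hemidesmosomes, had the largest drop of the partners in siNT cells. It had 9859, 11775 and 12278 normalized reads with vehicle and 3055, 3671 and 3720 with doxorubicin, or 30.8% (log2 fold change −1.68, SE 0.13, limma adjusted p = 3.1e-07). In siMLK4 cells it was at 8400, 7573 and 6010 with vehicle and at 3038, 3103 and 3278 with doxorubicin, or 42.8% (−1.20, SE 0.13, adjusted p = 5.7e-06). Neither pair of groups overlapped, and the doxorubicin levels under the 2 siRNAs lay close together (log2 fold change −0.14, 95% interval −0.43 to 0.15). Its partner ITGA6 fell to 43.3% in siNT (−1.20, adjusted p = 8.6e-06) and to 46.4% in siMLK4 cells (−1.09, adjusted p = 2e-05).

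ITGA3 had 5070, 5578 and 4730 normalized reads in siNT vehicle and 1828, 1888 and 1912 in siNT doxorubicin libraries, or 36.6% (log2 fold change −1.42, SE 0.10, limma adjusted p = 1e-07). In siMLK4 cells it was at 3239, 3100 and 2887 with vehicle and at 2014, 2151 and 1873 with doxorubicin, or 65.4% (−0.60, SE 0.10, adjusted p = 0.00015). The siMLK4 cells thus began lower, and the doxorubicin libraries of both siRNAs ended in the same range. The difference of the 2 responses was 0.82 (SE 0.14, 95% interval 0.52 to 1.12, limma adjusted p = 0.012), which meets the second rule and misses the first. No partner was called for this difference by the first rule (background: 0.0999% of genes higher and 0.176% lower) in limma or limma-voom, with 3 higher at an unadjusted p under 0.05, and ITGA3 was the 1 partner higher and none lower by the second (0.576% and 0.623%).

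**Figure D3:**
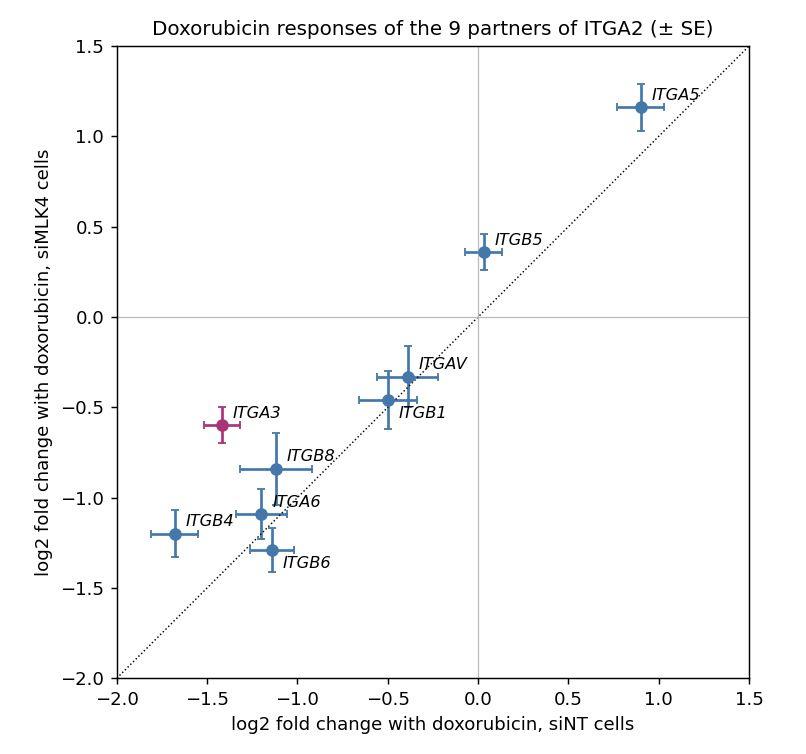
Log2 fold change with doxorubicin in siNT cells (horizontal axis) against that in siMLK4 cells (vertical axis) for the 9 partners of ITGA2; bars are standard errors and the dotted line marks equal responses. ITGA3 lies farthest above the line, at −1.42 and −0.60, and ITGA5 stands alone at the upper right, at 0.90 and 1.16.

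ITGA5, the α chain of the fibronectin receptor, was the member called higher. It had 1182, 1312 and 1342 normalized reads in siNT vehicle and 2595, 2541 and 2183 in siNT doxorubicin libraries, or 191% (log2 fold change 0.90, SE 0.13, limma adjusted p = 5.8e-05). In siMLK4 cells it rose from 1270, 1196 and 1091 to 2834, 3228 and 2189, or 232% (1.16, SE 0.13, adjusted p = 6.6e-06). Neither pair of groups overlapped, and the siRNAs were not told apart with either treatment.

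The αV group moved unevenly. ITGAV itself had 3416, 4489 and 4461 normalized reads in siNT doxorubicin and 3837, 3701 and 3901 in siMLK4 doxorubicin libraries, with log2 fold changes from vehicle of −0.39 (95% interval −0.75 to −0.03, limma adjusted p = 0.062) and −0.33 (−0.69 to 0.03, adjusted p = 0.10). ITGB6, whose dimer with ITGAV binds latent TGF-β, had 121.8, 148.6 and 150.1 in siNT doxorubicin and 167.0, 137.6 and 180.5 in siMLK4 doxorubicin libraries. It had fallen to 38.2% (−1.14, adjusted p = 4e-06) and 34.8% (−1.29, adjusted p = 1.4e-06) of the vehicle means. ITGB8, which pairs with ITGAV for the same ligand, had 1155, 1586 and 2064 in siNT vehicle and 2417, 1754 and 1438 in siMLK4 vehicle libraries, and fell to 43.3% (−1.12, adjusted p = 0.00027) and 53.5% (−0.84, adjusted p = 0.0024). The siMLK4 call for ITGB8 was lost without siMLK4 vehicle replicate 1, its highest library (−0.64, adjusted p = 0.013), or without siMLK4 doxorubicin replicate 1 (−0.83). ITGB5, the vitronectin receptor β chain, did not fall with them. It had 1256, 1307 and 1172 in siNT vehicle and 1252, 1328 and 1229 in siNT doxorubicin libraries, which overlapped (0.03, 95% interval −0.18 to 0.24). In siMLK4 cells it went from 808.6, 871.9 and 714.6 to 1051, 1059 and 996.2, higher in every library by the second rule only (0.36, adjusted p = 0.0064). ITGB1 was lower with doxorubicin by the second rule as well, at 70.5% of the vehicle mean in siNT (−0.50, adjusted p = 0.014), and in siMLK4 cells at 71.9% with overlapping libraries (−0.46, adjusted p = 0.02).

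Levels of different genes were compared as normalized reads per kilobase of the longest annotated transcript. Over the union of annotated exons ITGB1 spans 14561 bases rather than 5614 and ITGAV 19336 rather than 7951, which lowers both levels. ITGA2 spans 7896 rather than 7843. The order, and the ratios with ITGB1 or ITGAV given below, therefore hold for the longest transcript only. In siNT vehicle libraries the order of the mean levels was ITGB1 (2442 per kb), ITGA6 (2329), ITGB4 (1917), ITGA3 (936), ITGAV (679), ITGA2 (486 ± 144 SD, n = 3), ITGB5 (280), ITGA5 (256), ITGB8 (179) and ITGB6 (79.1). Libraries of ITGB1 overlapped with those of ITGA6, and ITGA6 with ITGB4, as did ITGAV with ITGA2 and ITGB5 with ITGA5. In siMLK4 vehicle libraries ITGA2 was last, at 77.1 per kb, overlapping with ITGB6 at 100. With doxorubicin ITGA5 stood at 488 per kb in siNT and 550 in siMLK4 cells, above ITGA3 at 342 and 367 in both. At 42 per kb in siMLK4 doxorubicin cells, ITGA2 overlapped only with ITGB6 (34.8), the lowest subunit there.

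The make-up of the α chains was read as each chain's share of the summed reads per kilobase of ITGA2, ITGA3, ITGA5, ITGA6 and ITGAV. ITGA2 made up 8.67%, 9.75% and 12.3% in siNT vehicle and 3.22%, 2.80% and 2.09% in siMLK4 vehicle libraries. The shares did not overlap and differed by −7.52 percentage points (siMLK4 minus siNT, means 2.70% and 10.2%), with p = 0.1 in a two-sided exact permutation test, the smallest that 3 against 3 libraries can give. With doxorubicin the ITGA2 share was 7.98%, 10.8% and 10.9% in siNT and 1.83%, 1.93% and 2.44% in siMLK4 libraries. ITGA6 held the largest share in every library except siMLK4 doxorubicin replicate 2, where ITGA5 took 29.9% and ITGA6 28.4%, with means of 49.6% in siNT vehicle, 38.4% in siNT doxorubicin, 46.6% in siMLK4 vehicle and 29.6% in siMLK4 doxorubicin libraries. ITGA5 had means of 5.49%, 18.8%, 8.56% and 26.8% in the same order. Per kilobase, ITGA2 amounted to 19.6% ± 2.98 (SD, n = 3) of ITGB1 in siNT vehicle and 5.73% ± 1.07 in siMLK4 vehicle libraries, since ITGB1 was lower too but by less. ITGAV amounted to 27.8% of ITGB1 in siNT vehicle and 46.5% in siMLK4 vehicle libraries. ITGA6 stood at 121% ± 6.16 of ITGB4 in siNT vehicle, 170% ± 4.48 in siNT doxorubicin, 105% ± 3.06 in siMLK4 vehicle and 113% ± 6.16 in siMLK4 doxorubicin libraries. These ratios rest on annotated lengths and describe RNA, not the dimers on the cell surface.

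**Figure D4:**
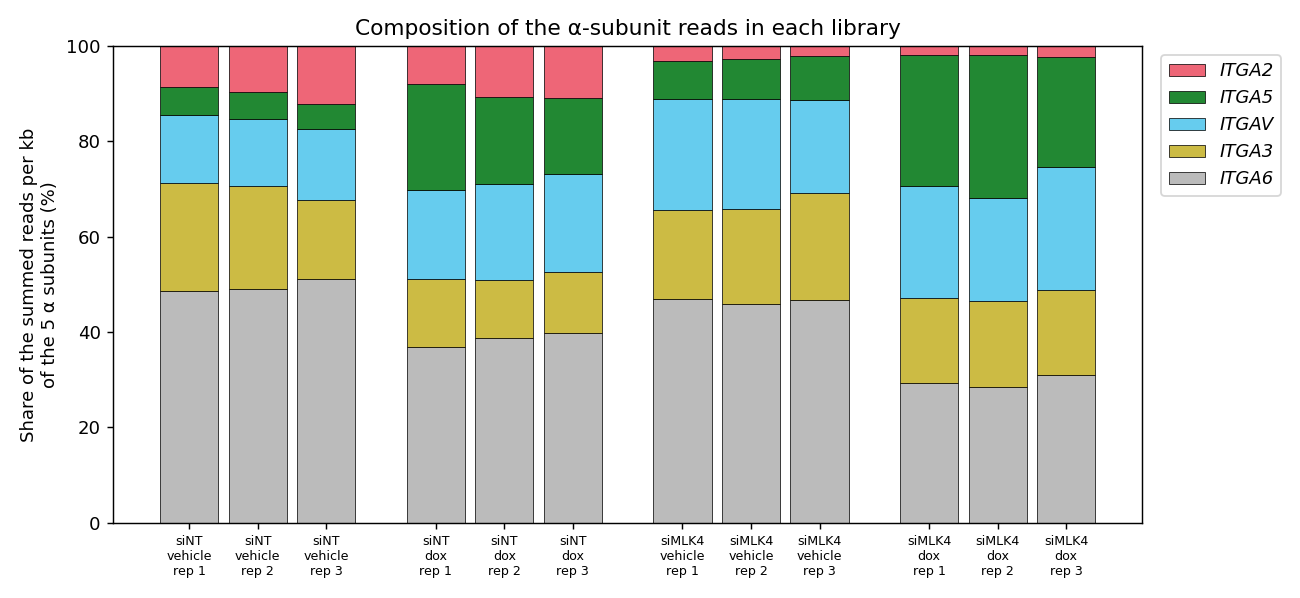
Share of each α subunit (%, vertical axis from 0 to 100) in the summed reads per kilobase of the 5 α subunits, with a stacked bar for each of the 12 libraries. ITGA2 takes 8.67 to 12.3% in siNT vehicle and 2.09 to 3.22% in siMLK4 vehicle libraries, and ITGA5 widens with doxorubicin under both siRNAs.

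Of 16 further subunits, best known from other tissues, 7 had a row (ITGA1, ITGA2B, ITGA4, ITGA7, ITGA8, ITGAE and ITGB2), and the rest were not analysed here. No gene of the table averages under 10.67 normalized reads in the group where it is highest, so a subunit near 0 with vehicle could enter only if it was high elsewhere, and no count of calls is given for these 7. ITGAE, which pairs with the β7 chain on lymphocytes, was the most abundant of them, at 129 reads per kilobase in siNT vehicle and 68.2 in siMLK4 doxorubicin libraries, above ITGB6 in both. ITGA2B averaged 56.06 and ITGB2 13.87 normalized reads in siNT vehicle libraries. ITGA1, which like ITGA2 pairs with ITGB1 as a collagen receptor, rose from 17.61, 19.73 and 20.21 normalized reads to 78.44, 89.58 and 77.05 in siNT cells (log2 fold change 1.08, limma adjusted p = 4.7e-06). In siMLK4 cells it rose from 20.04, 17.94 and 16.22 to 98.36, 123.4 and 78.93 (1.31, adjusted p = 9.7e-07). The siRNAs overlapped for it with either treatment. ITGA7, a laminin-binding chain known from muscle, was at 6.023 with vehicle and 50.12 with doxorubicin on average in siNT and at 21.67 and 127.1 in siMLK4 cells. It was higher in siMLK4 than siNT cells with doxorubicin (0.88, limma adjusted p = 0.00026) and, by the second rule, with vehicle (0.58, adjusted p = 0.0043), where it also met the first rule on log2(normalized reads + 1) (1.73). ITGA4 was at 5.122 with vehicle and 67.9 with doxorubicin in siNT and at 14.07 and 46.6 in siMLK4 cells. ITGA8 had 1 read in the 3 siNT vehicle libraries together and 0 in the siMLK4 vehicle libraries. With doxorubicin it was at least 5.91-fold higher in siNT and at least 4.14-fold higher in siMLK4 cells, against a floor of 3 reads per library. ITGAE was lower with doxorubicin by the second rule only (siNT −0.57, limma adjusted p = 0.0046; siMLK4 −0.63, adjusted p = 0.0024). In the same libraries the number of genes with 0 reads was lower with doxorubicin, 27 to 42 against 313 to 354 in siNT and 17 to 21 against 200 to 219 in siMLK4 cells, and its part in the values of these low genes was not tested.

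Of 41 matrix ligands of the integrins 36 were in the table. Between the siRNAs 5 were called higher and 3 lower with vehicle (all genes 2.51% and 3.14%), and 6 and 4 with doxorubicin (2.66% and 2.93%), with medians of 0.28 and 0.04 against 0.01 and 0.02 over all genes. LAMA3 and LAMB3, chains of a basement membrane laminin that ITGA3 and ITGA6 dimers bind, were among those lower with vehicle. LAMB3 had 27408, 21776 and 20826 normalized reads in siNT and 11277, 12969 and 12490 in siMLK4 vehicle libraries (log2 fold change −0.92, SE 0.13, limma adjusted p = 0.00021). LAMA3 had 5843, 9153 and 10098 against 3910, 3543 and 1975 (−1.42, SE 0.26, adjusted p = 0.0015), a call that was lost in a fit of the 2 groups alone (adjusted p = 0.021). Neither pair of groups overlapped. With doxorubicin LAMB3 was called lower in siMLK4 than siNT cells again (−1.17, adjusted p = 3.4e-05), while LAMA3 missed both rules (−0.75, adjusted p = 0.052). The collagen IV chain COL4A2 was higher in siMLK4 cells with vehicle (1.14, adjusted p = 0.00011) and with doxorubicin (1.27, adjusted p = 6e-05), and EDIL3, an RGD ligand of ITGAV dimers, with vehicle (1.25, adjusted p = 0.0003), the latter at an adjusted p of 0.011 in a fit of the 2 groups alone.

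With doxorubicin 7 ligands were called higher and 2 lower in siNT cells (all genes 12.1% and 10.6%), and 9 and 7 in siMLK4 cells (12.6% and 10.6%), with medians of −0.00 and 0.09 against 0.00 and 0.02. The largest rises were in LTBP1, which holds latent TGF-β in the matrix (from 50.27 to 511 normalized reads on average in siNT, log2 fold change 2.51, limma adjusted p = 5e-07, and 2.69 in siMLK4 cells), and in CCN2, a matricellular ligand of integrins (from 294.5 to 1610, 2.28, adjusted p = 8.4e-08, and 2.60). TGFB2 rose under both siRNAs (1.73, adjusted p = 1.5e-07 in siNT, and 1.36, adjusted p = 1.2e-06 in siMLK4 cells), as did CCN1, another matricellular ligand (1.21, adjusted p = 1.1e-06, and 1.60, adjusted p = 1.3e-07).

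**Figure D5:**
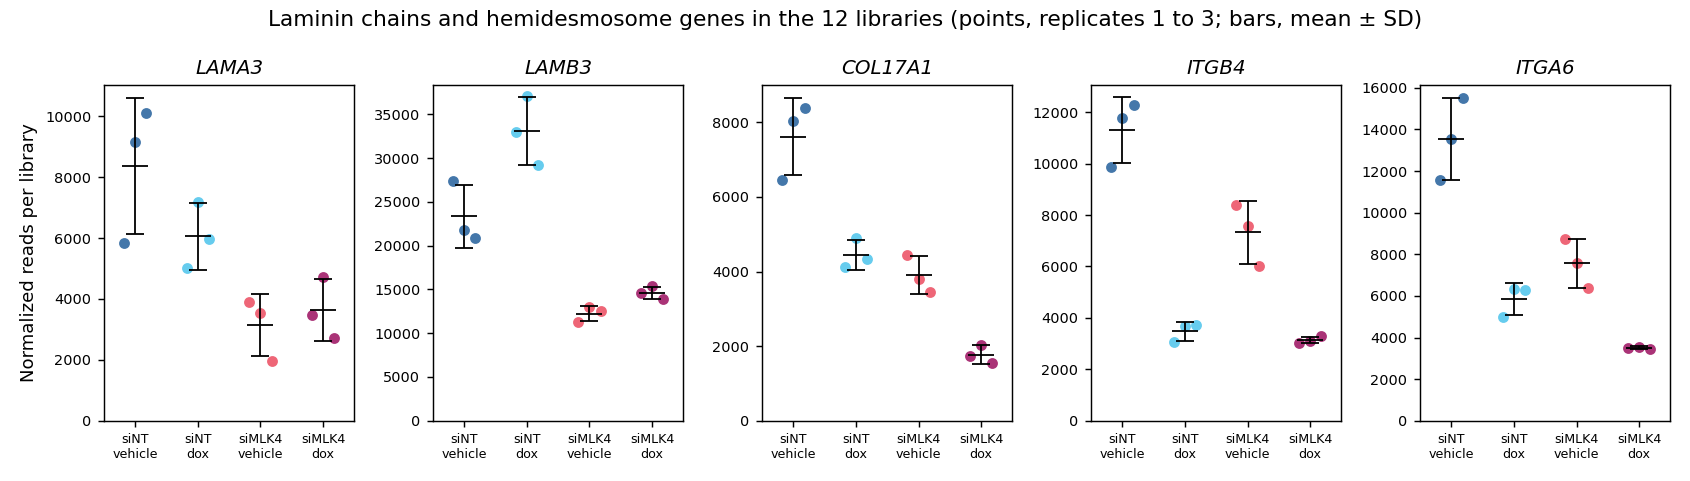
Normalized reads (vertical axis, linear from 0) of the laminin chains LAMA3 and LAMB3, of COL17A1 and of their hemidesmosomal receptors ITGB4 and ITGA6 in each of the 12 libraries; points are replicates 1 to 3 and bars the mean ± SD. The laminin chains and COL17A1 are lower in siMLK4 than siNT vehicle libraries, and ITGB4 and ITGA6 are lower with doxorubicin under both siRNAs.

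Of 18 hemidesmosome and tetraspanin genes, all in the table, 8 were called lower with doxorubicin in siNT and 6 in siMLK4 cells and none higher by limma, where all genes had 10.6% lower under each siRNA and 12.1% and 12.6% higher. The medians were −0.65 and −0.44. SLC7A5, the amino acid transporter that shares its CD98 partner with integrins, fell from 23811 to 6937 normalized reads on average in siNT (log2 fold change −1.76, limma adjusted p = 8.8e-08) and from 17471 to 7469 in siMLK4 cells (−1.22, adjusted p = 1.9e-06). PLEC, the linker between ITGB4 and keratin, also fell under both (−1.62, adjusted p = 6.1e-06, and −1.13, adjusted p = 0.00013). The basal keratins fell under both siRNAs, with log2 fold changes in siNT and siMLK4 of −1.26 (adjusted p = 1.5e-05) and −1.47 (adjusted p = 4.1e-06) for KRT14 and of −1.24 (adjusted p = 1.3e-05) and −2.20 (adjusted p = 1.2e-07) for its partner KRT5. Between the siRNAs with vehicle 3 of the 18 were called lower and none higher (all genes 3.14% and 2.51%). These were COL17A1, the hemidesmosomal collagen (6447, 8026 and 8376 in siNT against 4453, 3789 and 3447 in siMLK4 libraries; −0.96, SE 0.14, adjusted p = 0.00023), KRT14 (−1.05, adjusted p = 0.00033; KRT5 was higher by the second rule, 0.64, adjusted p = 0.0074) and PLAUR, the urokinase receptor (−0.83, adjusted p = 0.0013). PLAUR lost its call without replicate 1 of siNT vehicle (−0.72) or of siMLK4 vehicle (−0.70). With doxorubicin COL17A1 (−1.30) and KRT14 (−1.26) were lower in siMLK4 cells and TSPAN4, a tetraspanin, higher (0.91, adjusted p = 0.00082).

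Of 47 genes of the cytoplasmic adhesion complex, all in the table, 13 were called lower and 4 higher with doxorubicin in siNT cells, and 14 and 5 in siMLK4 cells, where all genes had 10.6% lower under each siRNA and 12.1% and 12.6% higher. The medians were −0.13 and −0.22. FLNC, a filamin that ties β chains to actin, fell under both siRNAs (log2 fold change −1.69, limma adjusted p = 7.2e-06 in siNT, and −2.23, adjusted p = 7.4e-07 in siMLK4 cells). LPP, a zyxin relative (−1.61, adjusted p = 5.7e-06, and −1.42, adjusted p = 1.6e-05), and SHC1, an adaptor (−1.28, adjusted p = 6.3e-07, and −1.40, adjusted p = 3.4e-07), did so too. Between the siRNAs, 2 of the 47 were lower and 2 higher with vehicle, and 2 lower and 1 higher with doxorubicin (all genes 3.14% and 2.51%, and 2.93% and 2.66%). TNS4, a tensin that binds the tail of ITGB1, was lower in siMLK4 cells both times, at 41.2% with vehicle (−1.22, adjusted p = 0.00054, and 0.013 in a fit of the 2 groups alone) and 35% with doxorubicin (−1.37, adjusted p = 0.00025). FERMT1, a kindlin that activates β chains, was lower with doxorubicin (−1.01, adjusted p = 0.0046). NEDD9, a docking protein, was higher with vehicle (1.13, adjusted p = 0.0039) and LIMS2, a partner of integrin-linked kinase, with doxorubicin (1.27, adjusted p = 2.7e-05). The calls of FERMT1 and NEDD9 were each lost on leaving out a single library, as with siMLK4 doxorubicin replicate 1 for FERMT1 (adjusted p = 0.026) and siNT vehicle replicate 1 for NEDD9 (adjusted p = 0.016).

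Across the 12 libraries, which share 4 groups, the pattern of ITGA2 on the deposited scale was most like those of LMAN1 (Pearson r = 0.996), PITPNB (0.992), ARSJ (0.991), WDR43 (0.989) and SRPRA (0.989) among 11056 genes with at least 100 normalized reads on average. LMAN1, a cargo receptor of the secretory pathway, had mean levels of 4088, 2808, 1609 and 1291 normalized reads in siNT vehicle, siNT doxorubicin, siMLK4 vehicle and siMLK4 doxorubicin libraries, the order in which ITGA2 stood. Of the partners ITGB1 came closest, with r = 0.97 at rank 56, followed by ITGA6 with 0.80. ITGB6 (0.14), ITGB8 (0.05) and ITGA5 (−0.30) were the least alike.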

How the data were processed

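HCC1806 mRNA was poly(A)-selected and sequenced in pairs for 12 libraries. The authors name in their methods Trimmomatic, Hisat2 on GRCh38, removal of optical duplicates, strand-specific assignment to genes and DESeq2, whereas the processing notes of the authors name hg19, Trimmomatic 0.39, HISAT2, HTSeq 0.6.0 and DESeq2 1.26.0. The deposited log2 values had been variance-stabilized by the authors after division of the reads by a size factor for each library, which was inferred from the values alone. Inverting this step returned whole reads for 100% of values (tolerance 0.05) and size factors of 0.8516 to 1.1993. Genes are given by Ensembl ID, so coordinates are those of GENCODE release 44 (GRCh38), which matched 16957 of 17013 genes.

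Groups and replicate numbers came from sample titles. The authors tested with DESeq2 and shrinkage. Since the deposited unit is not counts, limma 3.58.1 in R 4.3.3 (lmFit, eBayes with a variance trend, 12 libraries, 4 group means, Benjamini-Hochberg adjustment) took its place on the deposited log2 values. It was tested on simulated data, whose outcome is not reported here. The integrins and the gene lists were chosen with earlier results of these data known. Named were MAP3K21, all integrin subunits, in each list and comparison the 3 called genes with the largest fold change, and the 5 genes most correlated with ITGA2. LAMA3 and LAMB3 were set side by side after their values were seen, and some genes that the rule names are not reported here. Equally numbered libraries deviated together, as read from the values alone, between siNT vehicle and doxorubicin (0.46, 0.11 and 0.20) and between the siRNAs with doxorubicin (0.19, 0.52 and 0.56). Replicate pairs differed beyond sampling noise (chi-square per degree of freedom 7.01 to 63.7). Reads carry no molecular identifiers, so the floor of 3 reads covers counting error only. Alternatives changed the values tested, pseudocount, scaling, filter, samples, block, variance trend and threshold.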

Additional observations from a re-analysis of the deposited data

Results flagged for a closer look

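The doxorubicin response of ITGA3 differed between siRNAs by 0.82 on the log2 scale, with siNT cells at −1.42 and siMLK4 cells at −0.60 (limma interaction, SE 0.14, adjusted p = 0.012). All 3 doxorubicin libraries of each siRNA lay below all 3 of their vehicle libraries. Leaving out each library in turn gave 0.76 to 0.88. The siMLK4 vehicle libraries, which were lower than the siNT vehicle libraries, enter this difference as its baseline.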

How the results depend on the processing

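The 46 fold changes tested on the integrins were recomputed 957 times under the alternatives. Of these values 931 kept direction and side of the threshold, 9 lost the call, 3 gained it and 14 changed sign. The cause was not tested. These counts leave out ITGA1, ITGB2 and the interaction of ITGA2, whose sign changes are listed below as well. The lost calls were of ITGA6 and ITGB1 with vehicle and of ITGB8 with doxorubicin in siMLK4 cells, of which ITGA6 (−0.70) and ITGB8 (−0.68) also lost theirs by library totals. Library totals and TMM were both run on log2(reads + 1), so that they differ from the deposited values in the transformation too. Library totals moved the median of all genes to 0.24 (doxorubicin, siNT), 0.21 (doxorubicin, siMLK4), 0.16 (siRNA, vehicle) and 0.12 (siRNA, doxorubicin). Values that changed sign lay near 0. They were the siRNA difference with vehicle of ITGA5 (0.03) and ITGA1 (0.05) by library totals and of ITGAV on leaving out a library (−0.30 to 0.05, the latter without siMLK4 vehicle replicate 3), the siNT doxorubicin response of ITGB5 by TMM scaling (−0.00) and on leaving out a library (−0.01 to 0.06), and the interaction of ITGB1 by library totals (−0.02) and on leaving out a library (−0.11 to 0.15). On leaving out a library the interaction of ITGA2 ranged from −0.14 to 0.35, of ITGAV from −0.15 to 0.20 and of ITGA6 from −0.00 to 0.22, and ITGB2 from −0.07 to 0.13 with doxorubicin in siNT cells and from −0.13 to 0.01 and −0.16 to 0.03 between the siRNAs with vehicle and doxorubicin.

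Partners called in siNT cells with doxorubicin numbered 6 to 7. In siMLK4 cells they numbered 5, or 4 to 5 on leaving out a library and 8 at an adjusted p under 0.05 alone. Between the siRNAs with vehicle they numbered 2, but 1 by library totals, 0 with only the groups compared, 5 at an adjusted p under 0.05, and 0 to 3 on leaving out a library. With doxorubicin there was 1, or 2 at an adjusted p under 0.05, and 1 to 2 on leaving out a library (2 without siNT doxorubicin replicate 1). For the interaction there was none by limma, and 1 at an adjusted p under 0.05. All genes called between the siRNAs with vehicle numbered 961, but 1483 by limma-voom, 1613 on log2(reads + 1), 1611 on log2(reads + 8), 1622 by TMM, 1841 by library totals, 611 with only the groups compared and 4377 at an adjusted p under 0.05. With doxorubicin they numbered 950, but 1466 by limma-voom, 1381 on log2(reads + 1), 1484 on log2(reads + 8), 1379 by TMM, 1451 by library totals and 4219 at an adjusted p under 0.05. The doxorubicin comparisons gave 9745 (siNT) and 9858 (siMLK4) at an adjusted p under 0.05. The interaction gave 47, but 29 by limma-voom, 28 by TMM, 204 at an adjusted p under 0.05, and 0 to 37 on leaving out a library (0 without siMLK4 doxorubicin replicate 1). The ITGA2 share with vehicle differed by −9.78 points over the union of annotated exons and by −8.3 to −6.51 on leaving out a library.

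With the replicate number as a block the partners called stayed at 6 and 5 for doxorubicin in siNT and siMLK4 cells, 2 and 1 between the siRNAs with vehicle and doxorubicin, and 0 for the interaction, and it changed no other call of a partner. The numbers of all genes called were 3854, 3937, 951, 945 and 40. Between the siRNAs with vehicle (correlations −0.72, 0.32 and −0.52) and within siMLK4 cells (−0.08, 0.18 and 0.34), equal numbers deviated together for some replicates only.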
